A study of Mus musculus with 2 samples.

Results

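The clustered protocadherins are cell-surface adhesion proteins whose genes lie in 3 neighbouring arrays, Pcdha, Pcdhb and Pcdhg, on mouse chromosome 18. Members were taken as the protein-coding genes of GENCODE M21 basic whose symbol starts with Pcdha, Pcdhb or Pcdhg, which gave 57 of 21938 protein-coding genes: 14 Pcdha, 22 Pcdhb and 21 Pcdhg. The rule used symbols and not measurements. For description they were split into 12 Pcdha alternate genes (Pcdha1 to Pcdha12), 22 Pcdhb, 12 Pcdhga, 6 Pcdhgb and 5 C-type genes (Pcdhac1, Pcdhac2, Pcdhgc3, Pcdhgc4 and Pcdhgc5). The annotation gives the symbol Pcdha11 to a pair of gene identifiers, and the one that starts at position 37005203 is Pcdha10 in RefSeq and is called Pcdha10 here.

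The data are DNase-seq, in which the nuclease DNase I cuts chromatin where it is accessible, from hindbrain of B6NCrl mouse embryos at embryonic day 14.5. There is 1 group, 2 libraries from separate tissue samples, with male and female embryos pooled in each and no genetic change or treatment listed. Both carry the same strain donor entry and are listed as healthy. With 1 group there is no contrast, so the libraries are compared with each other and the members with all protein-coding genes, and nothing below carries a test of a condition. Whole hindbrain mixes many cell types, so a site open in few cells and a site weakly open in many cannot be told apart.

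In each Pcdha and Pcdhg gene a large variable exon with its own promoter encodes the extracellular cadherin repeats and the membrane-spanning part, and is spliced to 3 constant exons shared by the whole array. Pcdhb genes have no constant exons. Neurons use few of the alternate promoters per chromosome copy, apparently at random, while C-type genes are used more broadly, and the resulting mix of surface proteins lets a neuron tell its own branches from those of others. The architectural protein CTCF and the cohesin ring are known to connect chosen promoters with enhancers placed past the constant exons.

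The tissue label was checked against promoter peaks of marker genes. Peaks shared by both libraries lay at 8 of 8 hindbrain genes, 5 of 5 neuronal and 3 of 3 progenitor genes, at 3 of 5 forebrain genes and 1 of 2 muscle genes (Myod1, 79 and 56), and at none of 5 microglia and blood, 2 endothelial, 3 liver and 1 olfactory neuron genes. Over all protein-coding genes the share was 64.6%. Median scores in replicates 1 and 2 were 117 and 65 at the hindbrain genes, and 53 and 38 at the forebrain genes with a shared peak. Replicate 1 had 263679 peaks and replicate 2 had 148804, every peak 150 bp wide, with median scores of 47 and 30. The score is a whole number given per peak in the deposited files, and what it counts is not given in the sources used here. Depth is therefore unknown, and scores were read by their percentile within a library.

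Most clustered protocadherin promoters had a peak in both libraries, with scores that were low among promoters. A peak shared by both libraries (overlapping by at least 1 bp, midpoint within 1 kb of an annotated start) was present at 45 of 57 members, or 78.9% (95% Wilson interval 66.7 to 87.5, counting error only), beside 64.6% of all protein-coding genes. By array the counts were 10 of 14 Pcdha, 19 of 22 Pcdhb and 16 of 21 Pcdhg genes, and by subgroup 8 of 12 Pcdha alternate, 11 of 12 Pcdhga, 3 of 6 Pcdhgb and 4 of 5 C-type genes. When only the upper 50% of each library's peaks by score were used, 12 of 57 members kept a shared promoter peak, with 0 of 22 Pcdhb genes among them, while the share over all protein-coding genes was 61.5%. The 12 were Pcdha2, Pcdhga2, Pcdhga3, Pcdhgb6, Pcdhga10, Pcdhgb7, Pcdhga11, Pcdhga12 and the 4 C-type genes with a peak.

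The scores give the same picture member by member. At genes with a shared promoter peak the median score over all protein-coding genes was 130 in replicate 1 (quartiles 109 and 140) and 96 in replicate 2 (quartiles 67 and 111). Of the 45 members, 42 in replicate 1 and 43 in replicate 2 lay below the lower quartile. The 41 that are not C-type had a median percentile among those promoters of 1.19 in replicate 1 and 1.52 in replicate 2, and 34 and 33 of them were below the percentile 5. The 4 C-type genes had median percentiles of 33.4 and 33.1. Against every peak of a library, promoter or not, the members' best promoter peaks were less extreme, with median percentiles of 41.7 and 29.9.

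**Figure D1:**
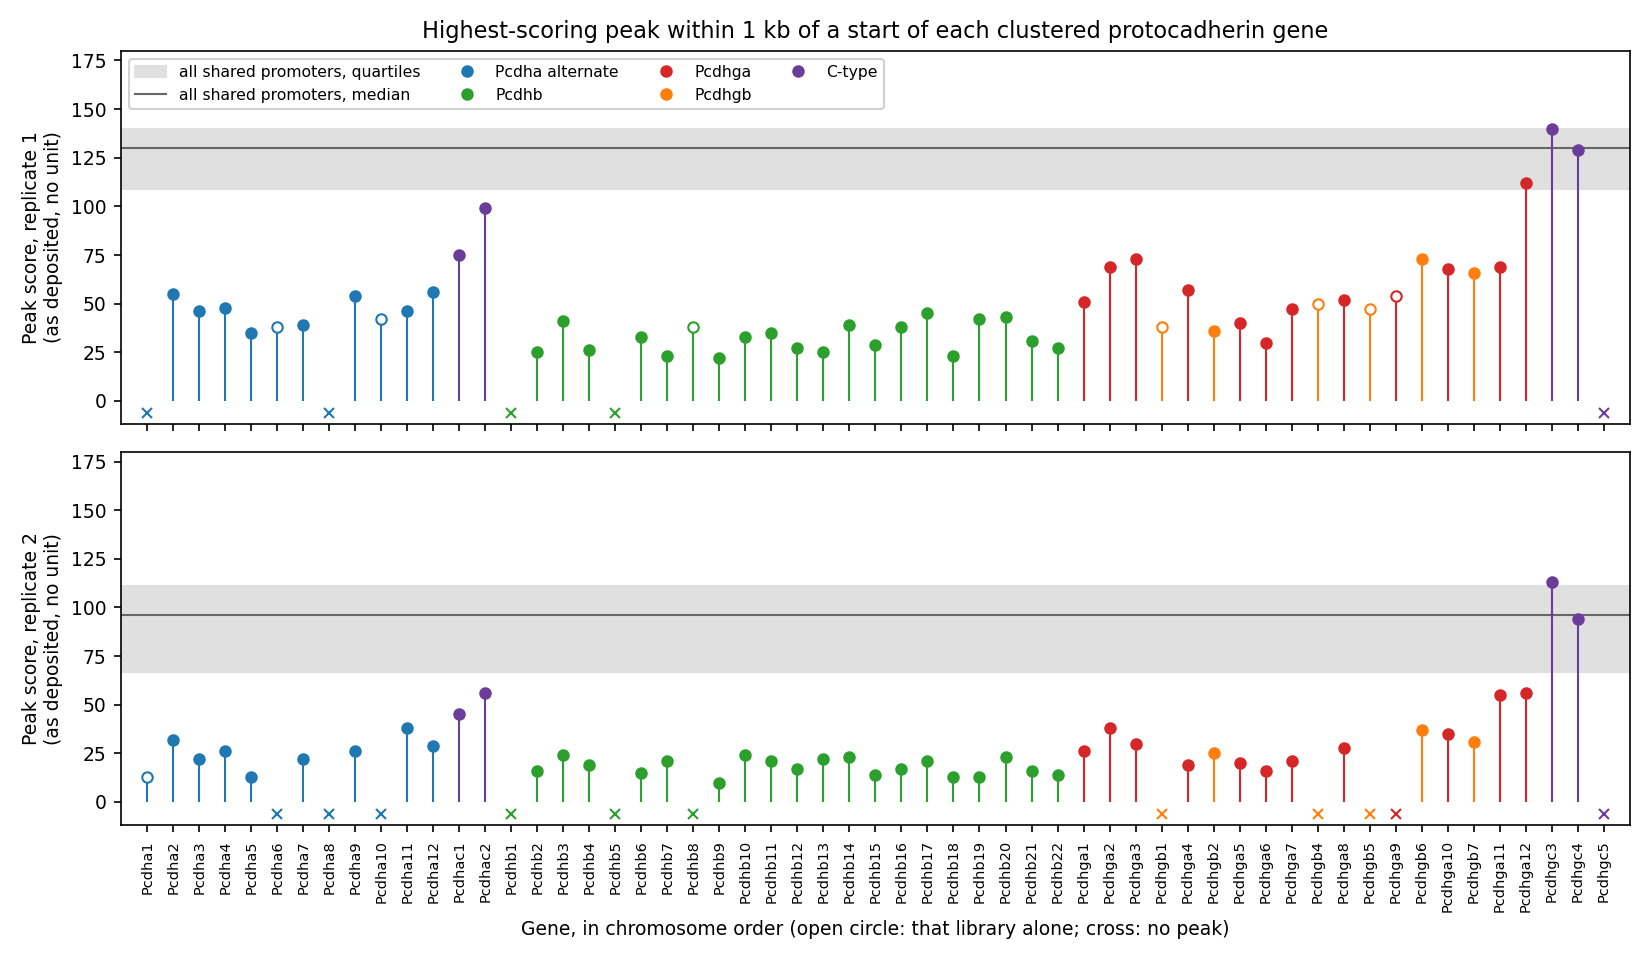
Score of the highest-scoring peak within 1 kb of a start (vertical axis, as deposited, no unit) for each of the 57 genes in chromosome order, replicate 1 above and replicate 2 below, with the median and quartiles over all genes with a shared promoter peak. Filled circles are peaks of genes called in both libraries, open circles genes called in that library alone, and crosses genes with no peak. The Pcdhb genes stay between 22 and 45 in replicate 1, and Pcdhgc3 reaches 140.

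The C-type genes Pcdhgc3 and Pcdhgc4, which lie near the Pcdhg constant exons, had the highest scores of all members in each library. Pcdhgc3 scored 140 in replicate 1 and 113 in replicate 2, at percentiles 75.9 and 79.5 of all shared promoters. Pcdhgc4, whose loss alone is known to cost interneurons their survival, scored 129 and 94. In the Pcdha array Pcdhac2 scored 99 and 56, and Pcdhac1 scored 75 and 45. The order Pcdhgc3, Pcdhgc4, Pcdhac2, Pcdhac1 was the same in both libraries. Pcdhgc5 had no peak within 1 kb in either library, and the nearest peaks lay 3.62 kb before its start in replicate 1 and 3.38 kb before it in replicate 2. Most C-type promoters held several peaks: Pcdhgc4 had 5 and 6 peaks within 1 kb in replicates 1 and 2, Pcdhac2 had 4 and 5, Pcdhgc3 had 3 and 3, and Pcdhac1 had 3 and 1.

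The highest-scoring peaks within 1 kb of the Pcdha alternate starts scored 35 to 56 in replicate 1 and 13 to 38 in replicate 2. Among all peaks of a library these were percentiles 25.8 to 62.1 and 6.58 to 64.9. Pcdha2 scored 55 and 32, Pcdha9 scored 54 and 26, and Pcdha11 scored 46 and 38. Pcdha12 scored 46 and 29 at its start, and the 56 in replicate 1 was that of a peak 561.5 bp past it. Pcdha6 (score 38) and Pcdha10 (score 42) had a peak in replicate 1 alone, and Pcdha1 (score 13) in replicate 2 alone. Pcdha8 had none, and its nearest peaks, 5.42 and 5.46 kb past its start, are those at the promoter of Pcdha9.

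Pcdhb promoters, each in front of a gene without constant exons, had the lowest scores. The 20 with a peak in replicate 1 scored 22 to 45 (median 32), and the 19 with a peak in replicate 2 scored 10 to 24 (median 17). All 19 shared Pcdhb peaks were below the median of all peaks in each library, and 15 of the 19 in replicate 1 and 11 in replicate 2 were below the percentile 1 of shared promoters. The highest in replicate 1 was Pcdhb17 (45 and 21 in replicates 1 and 2), followed by Pcdhb20 (43 and 23) and Pcdhb19 (42 and 13). The lowest was Pcdhb9 (22 and 10). Pcdhb1 and Pcdhb5 had no peak, with the nearest ones 10.8 and 10.6 kb away in replicate 1, and Pcdhb8 had a peak in replicate 1 alone (score 38).

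Along the Pcdhg array, where Pcdhga and Pcdhgb genes alternate, scores in replicate 1 were 51, 69 and 73 at Pcdhga1, Pcdhga2 and Pcdhga3, went down to 30 at Pcdhga6, and were 68, 69 and 112 at Pcdhga10, Pcdhga11 and Pcdhga12. In replicate 2 the same 7 genes scored 26, 38, 30, 16, 35, 55 and 56. The 30 at Pcdhga6 in replicate 1 was that of a peak 451.5 bp past its start, and the peak at its start scored 29. Pcdhga12, the last alternate gene before the C-type genes, was the highest of all 52 non-C-type members in each library, at percentiles 27.1 and 19.0 of shared promoters. Among Pcdhgb genes, Pcdhgb6 (73 and 37), Pcdhgb7 (66 and 31) and Pcdhgb2 (36 and 25) were called in both libraries, and Pcdhgb1 (38), Pcdhgb4 (50) and Pcdhgb5 (47) in replicate 1 alone.

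**Figure D2:**
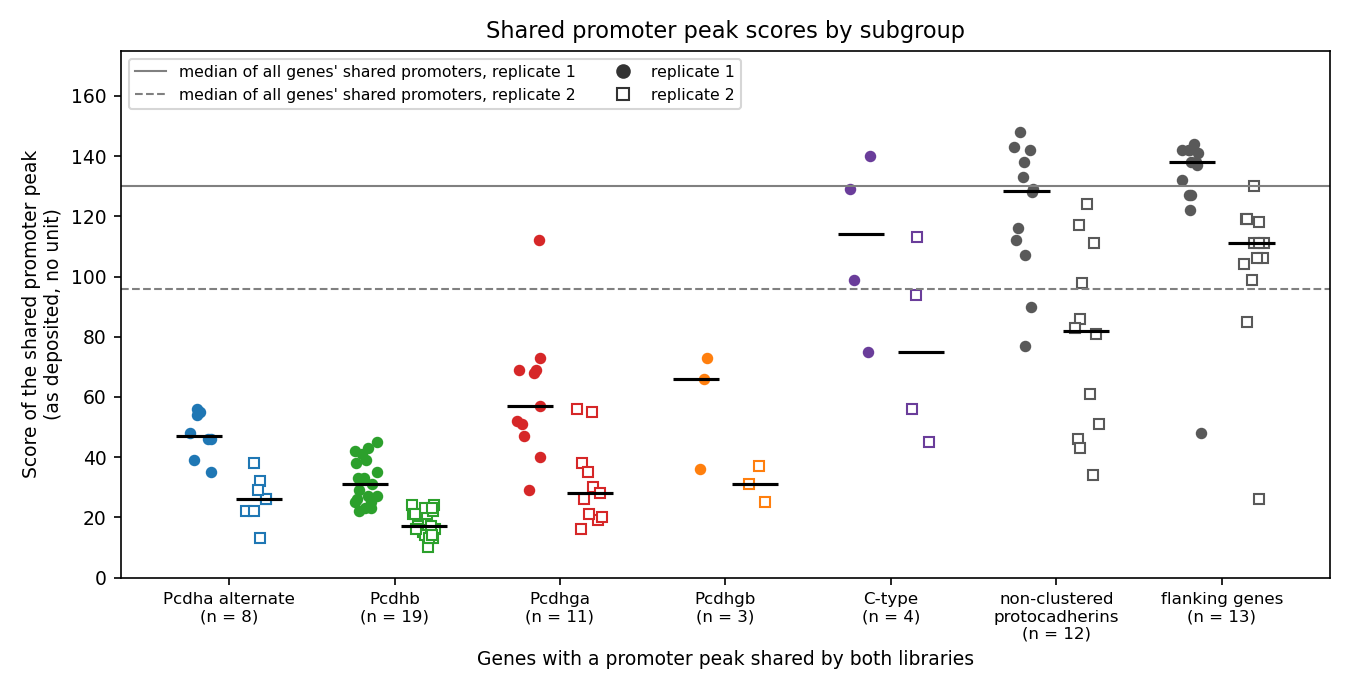
Scores of shared promoter peaks (vertical axis, as deposited, no unit) by subgroup, with non-clustered protocadherins and the other protein-coding genes of the region beside them. Filled circles are replicate 1, open squares replicate 2, short black bars medians, and grey lines the medians of all genes' shared promoters. The Pcdhb genes form the lowest group and the C-type genes reach the range of the non-clustered protocadherins.

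More members had a promoter peak in replicate 1 than in replicate 2. A peak was present in replicate 1 at 52 members (all protein-coding genes 69.9%) and in replicate 2 at 46 (all protein-coding genes 65.7%). Called in replicate 1 alone were 7 members, or 12.3%, beside 4.84% of all genes, and 1 member, or 1.75%, was called in replicate 2 alone, beside 0.647%. The remaining 4 members had no peak in either library. The 7 seen in replicate 1 alone scored 38 to 54 (median 42) there, beside 22 to 112 (median 41) for the 41 non-C-type members called in both, which include the low-scoring Pcdhb genes. Within Pcdhg without the C-type genes, the 4 seen in replicate 1 alone had a median of 48.5 and the 14 called in both one of 61.5. Replicate 2 had fewer peaks over the whole genome, and the part this had in the difference was not tested. Across the 45 shared members Spearman's rho between the scores of the libraries was 0.84, and across the 19 Pcdhb genes alone it was 0.43. These are descriptions, since neighbouring genes share the 2 libraries and their depth. Hotspots, the wider regions of enriched cutting that were deposited beside the peaks, lay at the promoter in each library at 45 members, beside 65.5% of all genes. The −log10 q of the hotspot was at its highest value of 100 at 27 members in replicate 1 and at 9 in replicate 2. The C-type genes with a peak were at 100 in both. The share of all protein-coding genes at 100 was not computed, so these counts are a description.

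Peaks sat on the annotated starts. In replicate 1 the midpoint of the nearest peak was a median of 33.5 bp from a start, and 45 of 52 members had it within 100 bp. In replicate 2 the median was 42 bp, with 38 of 46 within 100 bp, and over all protein-coding genes the median was 49.5 bp in each library. The member farthest off was Pcdhga12, with its peaks 330 bp past the annotated start in both libraries. Beyond 100 bp in both libraries were also Pcdha5, Pcdhac2, Pcdhb6, Pcdhb13 and Pcdhb17, and Pcdhb8 in replicate 1, the library in which it had a peak. No member was gained or lost when the window was set to 500 bp or to 2500 bp.

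Some members had a further peak inside the variable exon. In replicate 1, 6 of 12 Pcdha alternate genes had a peak with its midpoint 400 to 700 bp past the start: Pcdha12 (score 56), Pcdha4 (48), Pcdha9 (37), Pcdha11 (32), Pcdha5 (31) and Pcdha10 (25). In replicate 2 only Pcdha12 (27) and Pcdha4 (23) had it. The same distance held a peak in replicate 1 at 3 of 22 Pcdhb, 4 of 12 Pcdhga, 0 of 6 Pcdhgb and 2 of 5 C-type genes, and in replicate 2 at 1, 1, 0 and 3. Distances were taken from the outermost start, and the Pcdhb gene counted in both libraries was Pcdhb22. Its only peak lay 48.5 and 28.5 bp before its other annotated start in replicates 1 and 2, so it was not a further peak. None of the 12 Pcdha alternate genes had a peak 1000 to 3000 bp before or past its start. The distance of 400 to 700 bp was chosen after the peaks had been seen, so these counts by subgroup are a description. The share of all protein-coding genes with a peak at that distance was not computed. Whether such peaks are more frequent here than at other genes is therefore not known.

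**Figure D3:**
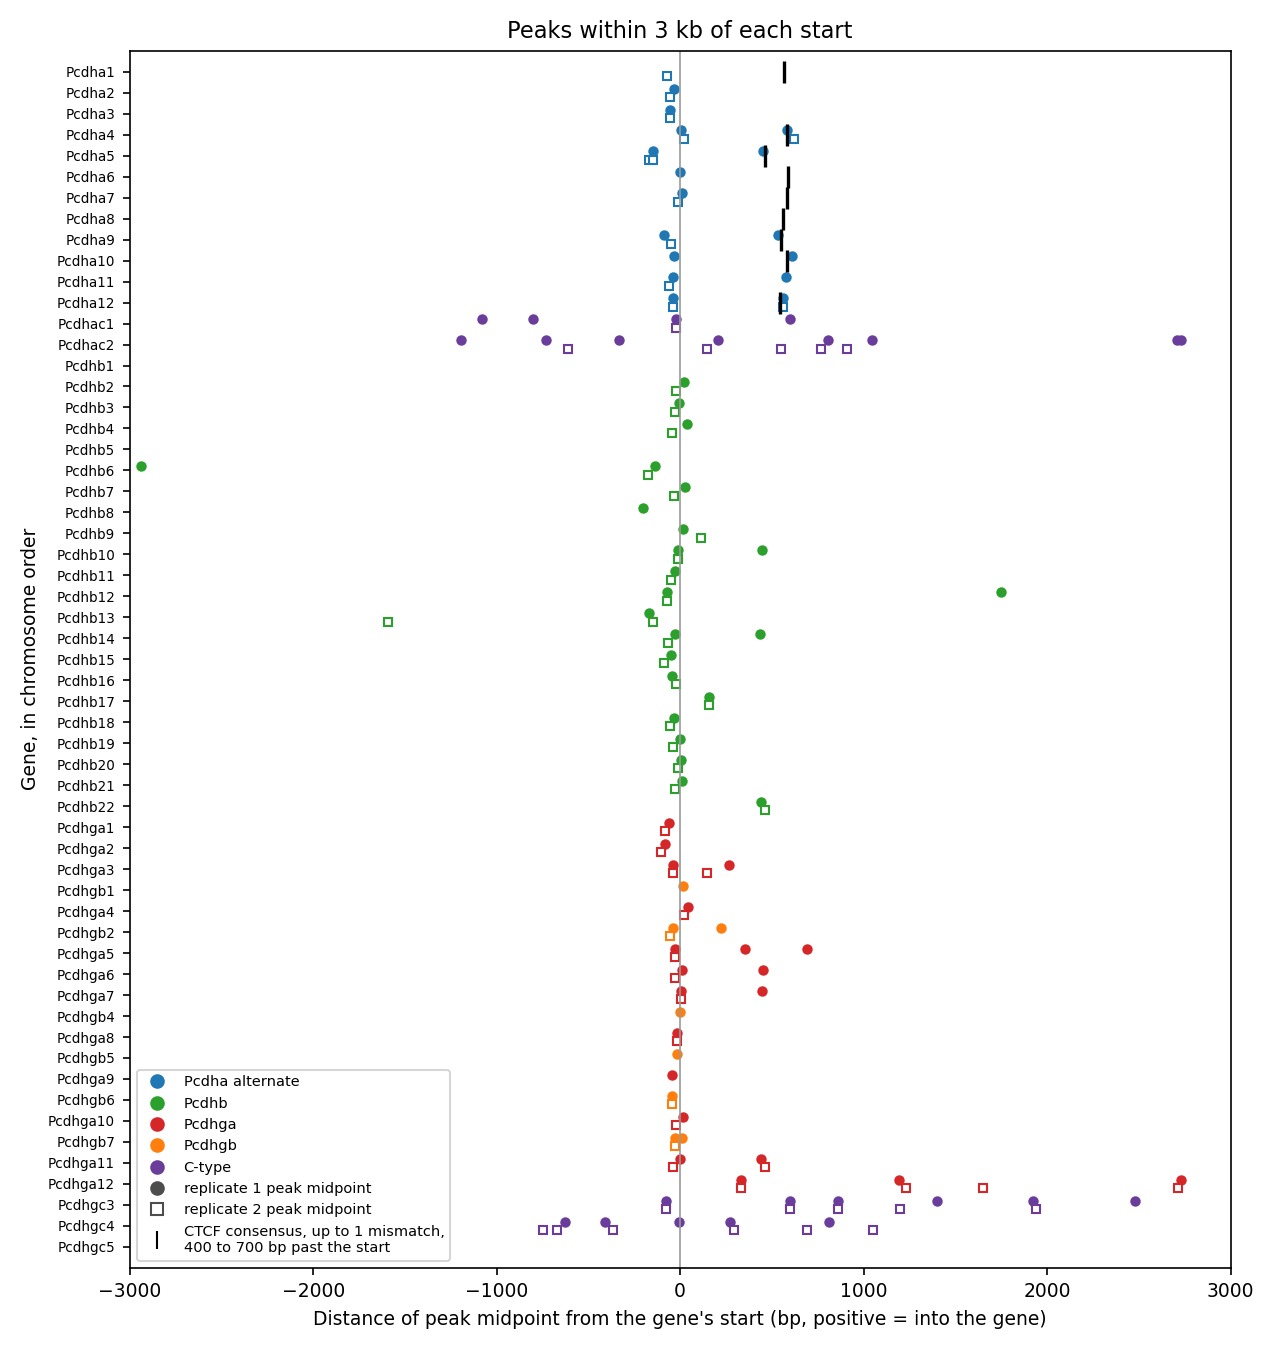
Midpoints of peaks within 3 kb of each of the 57 starts (horizontal axis, bp from the start, positive into the gene) in chromosome order, with filled circles for replicate 1, open squares for replicate 2 and black ticks for copies of the CTCF consensus with up to 1 mismatch 400 to 700 bp past the start. Most genes have a peak at the start, and the ticks fall in 9 Pcdha alternate genes.

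The CTCF consensus, 12 letters long and searched on both strands of the reference genome, occurred in that exonic stretch. With at most 1 mismatch it was found 400 to 700 bp past the start of 9 of 12 Pcdha alternate genes, and of none of the other 45 members, beside 2.88% of all protein-coding genes. The 9 copies lay 462 to 587 bp past the start and all were on the strand of the gene. In 6 genes (Pcdha1, Pcdha4, Pcdha6, Pcdha7, Pcdha8 and Pcdha12) the match was exact, beside 0.150% of all genes, and with up to 2 mismatches it was present in all 12, beside 26.7%. Matches were present with and without a peak: of the 6 genes with a peak in the exon in replicate 1, 5 had a match with at most 1 mismatch, and of the 6 without, 4 did. Both shared exonic peaks, at Pcdha4 (chr18:36953156-36953305, mm10) and Pcdha12 (chr18:37020636-37020785), covered an exact match. In the 300 bases of the promoter (250 before to 50 past the start) no member had a match with at most 1 mismatch, beside 4.79% of all promoters. With up to 2 mismatches 16 of 57 members (28.1%) had one there, beside 31.7% of all promoters.

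Promoter windows of the members were poor in G and C. Median GC content was 39.7% over the 57 members and 55.7% over all protein-coding genes, and 54.7% over the C-type genes. The median CpG ratio, observed over expected from base content, was 0.521 in members and 0.552 in all genes, with 0.427 in Pcdhb, 0.658 in Pcdha alternate and 0.774 in Pcdhgb genes. Among genes with a CpG ratio between 0.397 and 0.711, which are the quartiles of the members, 26 of 29 members and 82.8% of 5173 other genes had a shared promoter peak.

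A short word recurred in the Pcdhb promoters. Of all words of 8 letters counted on both strands, GTGGCGCT was one of 2 that the most Pcdhb windows held, in 17 of 22 genes, beside 1.42% of all promoters. It ends in CGCT, the core of a conserved promoter element known from these arrays, and CGCT was in 55 of 57 members beside 68.2% of all promoters. The members without it were Pcdhb22 and Pcdhga12, whose peaks lay farther past the outermost start than the window reaches. In a window of 500 bases on each side CGCT was in all 57 members, beside 86.3% of all genes. GGCGCT was in 18 of 22 Pcdhb genes and 43.9% of members, beside 19.2% of all. The 5 Pcdhb genes without the longer word were Pcdhb1, Pcdhb13, Pcdhb16, Pcdhb17 and Pcdhb22, and of these only Pcdhb1 lacked a peak. Pcdhb5 had the word and no peak. GTGGCGCT was picked for being frequent in these windows, and it was written on the strand that reads CGCT. CGCT and GGCGCT did not come from that count but were also chosen after seeing the data. The shares of these words therefore support nothing further.

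Near-identical copies can make reads hard to place. Words of 31 bases of the promoter window were unique in the genome throughout 51 of 57 members. The lowest shares of unique words were 81.9%, at Pcdhgb6 and Pcdhgb7, which were both called, and among the 12 members without a shared peak the lowest was 98.9%. Only the promoter window was checked, and the part of read placement in the missing peaks was not tested.

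Across the arrays, shared peaks away from every start lay outside the runs of alternate Pcdha, Pcdhb and alternate Pcdhg promoters. The region from 200 kb before Pcdha1 to 200 kb past the last Pcdhg exon held 119 shared peaks over 1311.7 kb, of which 37 lay farther than 1 kb from every start. Between Pcdha1 and Pcdha12 all 10 shared peaks, and between Pcdhb1 and Pcdhb22 (259.5 kb) all 19, were at member promoters. Between Pcdhga1 and Pcdhga12, 16 of 19 were at member promoters and the other 3 at starts of non-coding genes or pseudogenes. From first to last member, 13 of 81 shared peaks lay farther than 1 kb from every start, beside 81032 of 111722 shared peaks of the genome. Of the 13, 4 lay among the Pcdhg constant exons and 2 among the Pcdha constant exons. The others were 2 between Pcdhac1 and the Pcdha constant exons, 4 between Pcdha and Pcdhb1, and 1 between Pcdhga12 and Pcdhgc3.

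**Figure D4:**
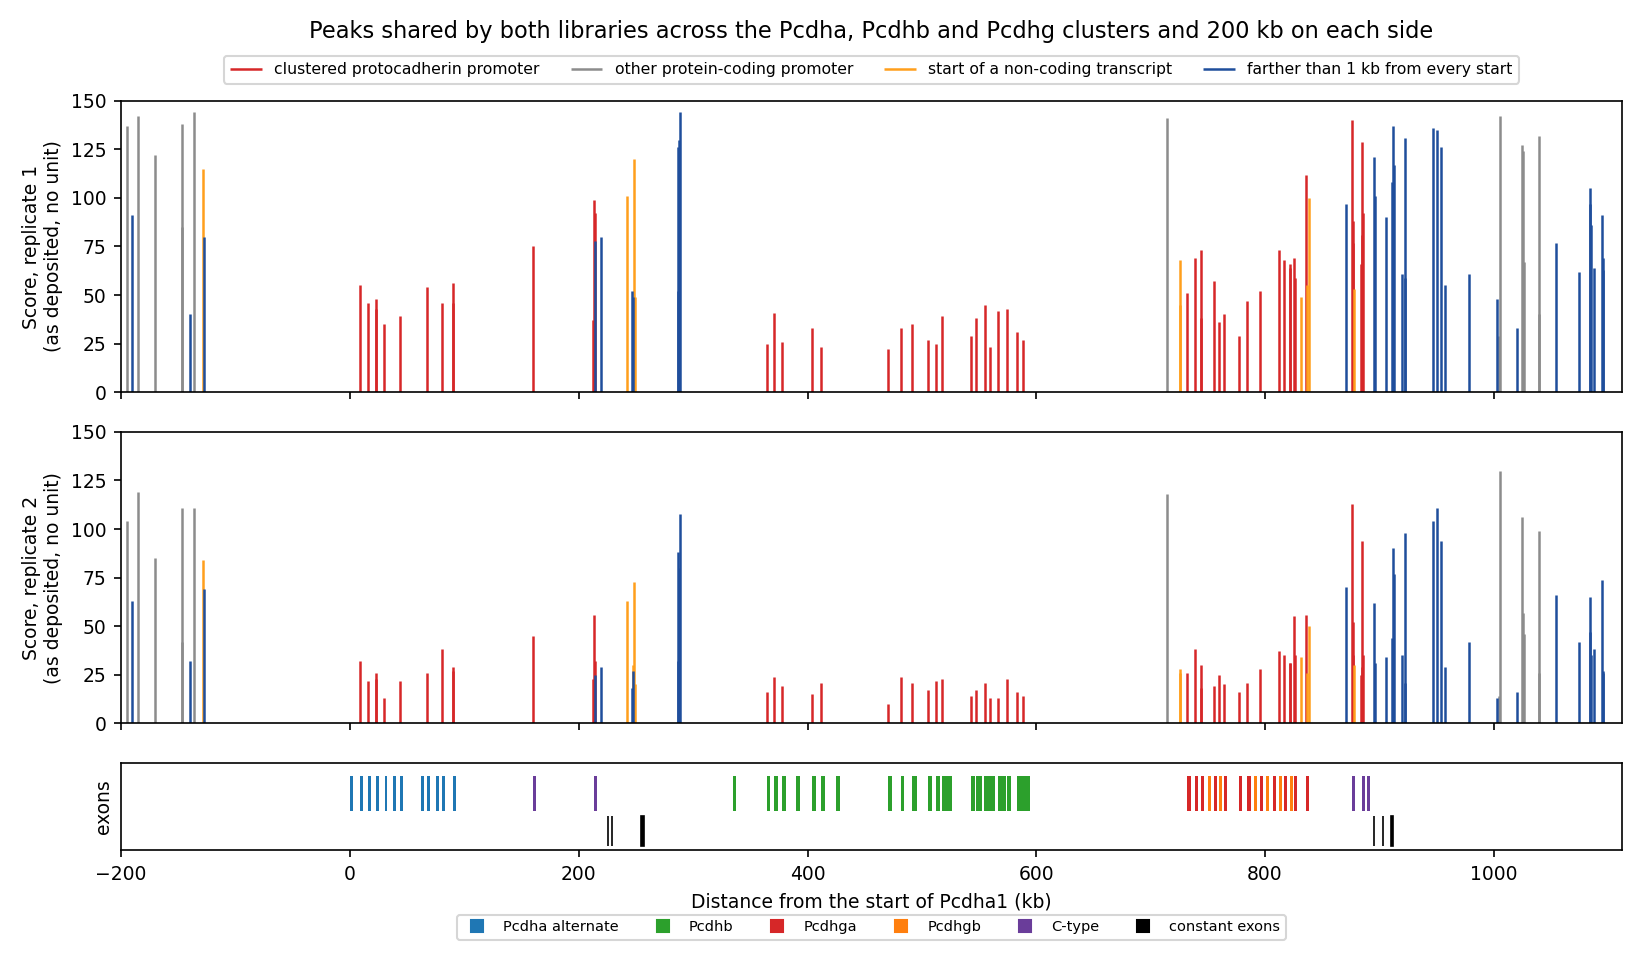
Shared peaks across the 3 arrays and 200 kb on each side, with score (vertical axis, as deposited, no unit) in replicate 1 and replicate 2 against distance from the start of Pcdha1 in kb, and variable and constant exons drawn below. Low peaks at Pcdha and Pcdhb promoters contrast with higher ones past each set of constant exons, where distal peaks reach 144 in replicate 1.

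Past the Pcdha constant exons there was a compact group of strong sites. All 4 shared peaks between the end of Pcdha and Pcdhb1 lay 29.1 to 30.7 kb past the last constant exon, and an enhancer of the Pcdha genes is known from the stretch past these exons. The highest, at chr18:37218236-37218385, scored 144 and 108 and ranked 6 of the 119 shared peaks of the region, above every Pcdha promoter. Its neighbours scored 130 and 80 at chr18:37217896-37218045, 126 and 88 at chr18:37217336-37217485, and 52 and 32 at chr18:37216716-37216865. The peak at 37217336 held an exact CTCF match on the opposite strand to that of the matches in the Pcdha variable exons.

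Inside the Pcdha array the intron after constant exon 2 held 6 shared peaks. The strongest were at chr18:37178476-37178625 (120 and 73) and chr18:37172296-37172445 (101 and 63), each within 1 kb of an annotated non-coding start. The other 4 scored 43 to 52 in replicate 1 and 18 to 30 in replicate 2. None of the 6 had a CTCF match with at most 1 mismatch.

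The Pcdhg constant exons held 4 shared peaks, with scores of 121 and 62 at constant exon 1 (chr18:37824976-37825125), 101 and 31 in the intron after it, 90 and 34 in the intron after constant exon 2, and 108 and 44 in constant exon 3. Past the last constant exon 9 more followed within 50 kb, toward and into Diaph1, an actin regulator on the opposite strand. Those nearest the array were at chr18:37842176-37842325 (137 and 90), 0.378 kb past the exon, and at chr18:37842716-37842865 (117 and 77). Farther on were chr18:37852156-37852305 (131 and 98), chr18:37877316-37877465 (136 and 104), chr18:37880236-37880385 (135 and 111) and chr18:37883596-37883745 (126 and 94). The remaining 3 scored 55 to 61 and 21 to 35. CTCF matches with at most 1 mismatch were in 3 of the 9 and all were on the strand opposite to the array, as was the match past Pcdha. Over the whole region 8 of 37 distal peaks had such a match (21.6%), beside 20.1% of 81032 shared distal peaks of the genome, and 5 of 37 (13.5%) had an exact match, beside 6.86%. The gap between Pcdhga12 and Pcdhgc3 held a lone distal peak at chr18:37800916-37801065 (97 and 70).

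Most genes around the arrays had promoter peaks of higher score than those in them. Of 18 other protein-coding genes in the region 13 had a shared promoter peak, with median scores of 138 and 111. Among the 13 is Gm42416, a gene model that starts inside the Pcdha array, close to Pcdha4. Its scores of 48 and 26 come from separate sites, the exonic peak of Pcdha4 in replicate 1 and the peak at the Pcdha4 start in replicate 2. Taf7, a subunit of a general transcription factor that lies between the Pcdhb and Pcdhg arrays, scored 141 and 118, and Diaph1 scored 142 and 130. Without a shared peak were Slc25a2, Dnd1, Arap3 and the readthrough models Gm37013 and Gm37388. Of 13 non-clustered protocadherins, relatives with promoters of their own elsewhere in the genome, 12 had a shared promoter peak, with median scores of 128.5 and 82. Pcdh10 (148 and 124), Pcdh9 (143 and 98) and Pcdh17 (142 and 117) were the highest in replicate 1, and Pcdh12, an endothelial protocadherin, had a peak in replicate 1 alone (35). The lowest of the 12 in replicate 1, Cdhr1 (77 and 34), was above 40 of the 41 called members that are not C-type in that library.

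The genes known to act on the arrays or with their proteins had open promoters. A shared peak was present at 20 of 20 factors that bind, fold or silence the arrays, with median scores of 138 and 102.5, among them Ctcf (144 and 104), the cohesin subunit gene Rad21 (143 and 113), the cohesin release factor gene Wapl (146 and 122), the silencing factor gene Smchd1 (139 and 97) and the DNA methyltransferase gene Dnmt3b (117 and 84). Of 18 partners of the proteins in signalling, 17 had a shared peak (132 and 105), including the kinase genes Fyn (148 and 130) and Ptk2 (141 and 122) and the actin regulator gene Wasf1 (145 and 117). Ptk2b, a kinase gene, had a peak in replicate 1 alone (26). Both counts were read beside the 64.6% of all genes, and most genes of these lists are broadly expressed.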

How the data were processed

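DNase-seq peaks and hotspots of 2 hindbrain libraries were used as deposited. According to notes deposited beside the files, the authors made both lists separately for each library, from mm10 alignments listed apart from the unfiltered ones. Which aligner, caller and settings they used is not given in the sources used here. Deposited peaks carry a score with no stated unit, and deposited hotspots a −log10 q-value that is 1.30 to 6 or 100. The files hold no read counts, so depth and the precision it gives are unknown. Coordinates are mm10, 1-based; gene models are GENCODE M21 basic and sequence is GRCm38.p6.

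Peaks of the libraries that overlapped by 1 bp or more counted as shared, and those with a midpoint no farther than 1 kb from a start counted as promoter peaks. Scores and percentiles were taken from each library separately, with Wilson 95% intervals for counts. No p-value was computed, since there is 1 group with no contrast. Calling and motif search were tested on planted peaks and motif copies. Python 3.11.15, numpy 2.4.6 and scipy 1.17.1 were used.

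Any member and any other protein-coding gene of the region could be named, with genes of the listed sets, the 10 highest-ranked shared peaks, and all shared peaks within the constant-exon introns or within 50 kb past the last constant exon. Peaks at constant exons and between Pcdhga12 and Pcdhgc3 were named after their values were seen. The members and lists were chosen with earlier results of these data known. The search 400 to 700 bp past the start and the short words were chosen after seeing the data. Alternatives were other windows, starts, overlaps, score limits, hotspots and single libraries.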

Additional observations from a re-analysis of the deposited data

How the results depend on the processing

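The 45 members with a shared promoter peak were the same 45 with windows of 500 or 2500 bp, with the outermost start only, with starts whose first exon holds the start codon, and with hotspots. With at least 50% of the peak overlapped, 43 remained, without Pcdhb4 and Pcdhb9. With a single library the count was 46 to 52. The score limit moved the counts most: with the upper 50% of peaks by score, 12 members were called, of them 3 Pcdha, 0 Pcdhb and 9 Pcdhg. The median percentile of non-C-type members, averaged over both libraries, was 1.35. It was 2.55 to 5.16 with a single library, whose promoter peaks include unshared ones, 1.76 with the window of 2500 bp and 3.14 with the upper 50% of peaks. The 37 distal peaks became 63 to 68 with a single library, and 13 without the flanks. The percentile was added as a result after seeing the data. In all, 52 of 63 values kept within their limits. The limits for counts were wide: 52 members beside 45 counted as kept. So did 6 and 12 Pcdha alternate genes with a CTCF match in the exon beside 9. The tally is therefore a coarse summary. Depth is unknown, so a missing peak may lie below what a library could show. The 2 libraries give no spread beyond the pair. No paired analysis was possible because there is a single group.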

Other observations

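Pcdhgb8, which the annotation calls a polymorphic pseudogene and which the symbol rule for protein-coding genes therefore left out, had promoter peaks of 49 in replicate 1 and 34 in replicate 2, within the range of the Pcdhgb members. Searched in the same way as CTCF, the consensus of the silencing factor REST (up to 3 mismatches, 17 letters) was in 1 of the 37 distal shared peaks of the region, or 2.70%, beside 1.23% of distal shared peaks of the genome. It was in none of the 57 shared peaks at member promoters, and the search was chosen after seeing the data.

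The word of 8 letters that most promoter windows of a subgroup held was GTGTCGCT in 6 of 12 Pcdha alternate genes (1 of 2 words at that count), CGCTGTTC in 8 of 12 Pcdhga genes, GCCGCTGT in 4 of 6 Pcdhgb genes (1 of 7 words at that count) and CCTCCCCA in 3 of 5 C-type genes. Whether the subgroups differ in these words was not tested. Each was picked because it was frequent in these windows. A word with CGCT on either strand was written on the strand that reads CGCT.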
